A study of Mus musculus with 15 samples.

Results

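The mRNA described here encode the 5 subunits of the transcription factor NF-kB and 5 of its inhibitors, measured by RNA sequencing in CD8+ T cells of P14 mice. The members were chosen by gene symbol: Nfkb1, Nfkb2, Rel, Rela and Relb for the subunits, and Nfkbia, Nfkbie, Nfkbid, Nfkbiz and Tnfaip3 for the inhibitors. All 10 of 10 had a row in both deposited tables, one of 11262 mRNA in 9 libraries of naïve and activated cells and one of 11211 mRNA in 6 libraries of cytotoxic T lymphocytes (CTL). Values are FPKM, counted fragments scaled to exon length and library size, so levels can be set against each other between genes of one library.

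All mice carried the P14 T cell receptor (TCR) transgene, specific for the lymphocytic choriomeningitis virus peptide gp33-41, so the cells share one antigen receptor. Naïve cells (n = 3) came straight from lymph nodes of female mice aged 9 to 13 weeks and were sorted as live TCRβ+ CD8+ CD62L high CD44 low cells. TCR cells (n = 3) came from the same pools after 24 h in culture with 2 ng/ml IL-12, 20 ng/ml IL-2, the antigen gp33-41 at 100 ng/ml and the DMSO vehicle, and PI3Kdi cells (n = 3) had in addition 10 µM IC87114, an inhibitor of the PI3K catalytic subunit p110δ. Both were sorted as live CD8+ cells, and lymph nodes of 3 mice were pooled for each replicate. CTL were activated for 48 h, grown for 4 days in 20 ng/ml IL-2 and washed on day 6, after which IL-2 was given back (CTL in IL-2, n = 3) or withheld for 24 h (IL-2 deprived CTL, n = 3); age and sex of these mice, and any sort, were not given in the sources used here. The CD8 T cell markers Cd8a, Cd8b1, Cd3d, Cd3e, Cd3g, Cd247, Lck and Zap70 were present in each library, with a sum of 948.97 to 4281.01 FPKM.

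NF-kB proteins work as dimers. Nfkb1 encodes p105, the precursor of p50, and Nfkb2 encodes p100, the precursor of p52, whereas Rela (p65), Rel (c-Rel) and Relb carry the domains that activate transcription. Cytoplasmic IkB proteins, here those of Nfkbia and Nfkbie, hold dimers in the cytoplasm until IkB kinase marks them for destruction. In T cells signals from the antigen receptor and CD28 reach that kinase. The IkB proteins of Nfkbid and Nfkbiz are nuclear and do not hold dimers in this way. Several inhibitor genes are themselves NF-kB targets, which gives the pathway its negative feedback.

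Genes of the pathway are known for kappaB elements near their starts, so the promoters are shown first. RefSeq promoters on GRCm38.p6, the patch series of mm10, matched 7 of the 10 symbols, with 12 annotated starts. The 250 bases before each start were searched on both strands for GGGNNNTTCC (GGAANNNCCC on the opposite strand), a short form of the kappaB element. It occurred before 9 of these 12 starts and in 6 of the 7 genes, Rela being the exception, beside 4.6% of all 32851 promoters and 5.3% of all 27025 genes in the table. Such a match is a string of letters and not a measured binding site. The windows of Nfkbia, Nfkbie and Rel are given whole, and 30 bases around a match are given for Tnfaip3, Nfkb2 and Nfkbid. These are the 6 members with a match in the RefSeq table, shown because Nfkbia, Nfkbie, Tnfaip3, Rel and Nfkb2 were each called in at least one comparison below and Nfkbid in none, and capitals mark the match.
Nfkbia promoter, chr12:55492648-55492897, minus strand: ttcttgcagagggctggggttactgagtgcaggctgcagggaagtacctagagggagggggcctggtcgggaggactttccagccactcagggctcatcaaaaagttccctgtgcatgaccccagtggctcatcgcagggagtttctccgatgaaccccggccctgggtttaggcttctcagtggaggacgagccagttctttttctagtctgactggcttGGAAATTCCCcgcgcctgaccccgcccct
Nfkbie promoter, chr17:45555450-45555699, plus strand: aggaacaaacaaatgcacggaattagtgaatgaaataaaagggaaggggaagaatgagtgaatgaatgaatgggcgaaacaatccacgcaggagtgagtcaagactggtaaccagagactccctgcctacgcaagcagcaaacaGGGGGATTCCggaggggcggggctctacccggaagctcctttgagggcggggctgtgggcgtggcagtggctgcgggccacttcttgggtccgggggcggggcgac
Rel promoter, chr11:23770970-23771219, minus strand: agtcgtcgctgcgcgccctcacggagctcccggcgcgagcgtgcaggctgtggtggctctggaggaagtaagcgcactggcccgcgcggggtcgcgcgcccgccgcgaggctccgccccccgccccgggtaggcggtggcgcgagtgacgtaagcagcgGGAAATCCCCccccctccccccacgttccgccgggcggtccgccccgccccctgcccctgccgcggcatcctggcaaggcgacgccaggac
Tnfaip3 distal start, chr10:19015411-19015440, minus strand: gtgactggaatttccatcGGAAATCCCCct
Nfkb2 first start, chr19:46304689-46304718, plus strand: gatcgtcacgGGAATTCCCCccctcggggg
Nfkb2 last start, chr19:46305695-46305724, plus strand: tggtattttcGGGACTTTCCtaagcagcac
Nfkbid middle start, chr7:30422215-30422244, plus strand: gggccgaacaGGAATTCCCCgtgcgcgggg
Counted from the annotated start, the match began at position -29 in Nfkbia, -106 in Nfkbie, -91 in Rel and -12 in Tnfaip3. By sequence, the Nfkbie start shown matched no GENCODE M21 transcript of that gene. Annotated exons of any gene, on either strand, covered 250 bases of the 250 before the first Nfkb2 start. They covered 234 before its last start and 110 before the distal Tnfaip3 start. Nfkb1, Relb and Nfkbiz are named only.

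Nfkb1 was the most abundant subunit mRNA in each of the 15 libraries, and Rel the least abundant. In naïve cells the order was Nfkb1, Rela, Nfkb2, Relb, Rel, with no overlap between neighbours. TCR and PI3Kdi cells had Nfkb2 ahead of Rela by mean. In TCR cells the ranges of Relb and Rel overlapped, and in PI3Kdi cells those of Nfkb2 and Rela overlapped. Across libraries these neighbours thus did not separate beyond their spread. Within each TCR and PI3Kdi library Relb was above Rel and Nfkb2 above Rela, though by as little as 40.86 against 40.83 FPKM for Nfkb2 and Rela (PI3Kdi replicate 1). Both CTL groups had the naïve order, again with no overlap between neighbours. Nfkb1 made up 38.4% to 42.4% of the summed FPKM of the 5 subunits in naïve cells, 57.4% to 61.7% in TCR cells, 42.4% to 49.8% in PI3Kdi cells, 70.2% to 72.9% in CTL in IL-2 and 59.4% to 63.0% in IL-2 deprived CTL. The 2 tables were normalised separately, so levels of CTL beside those of the other cells carry no test.

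**Figure D1:**
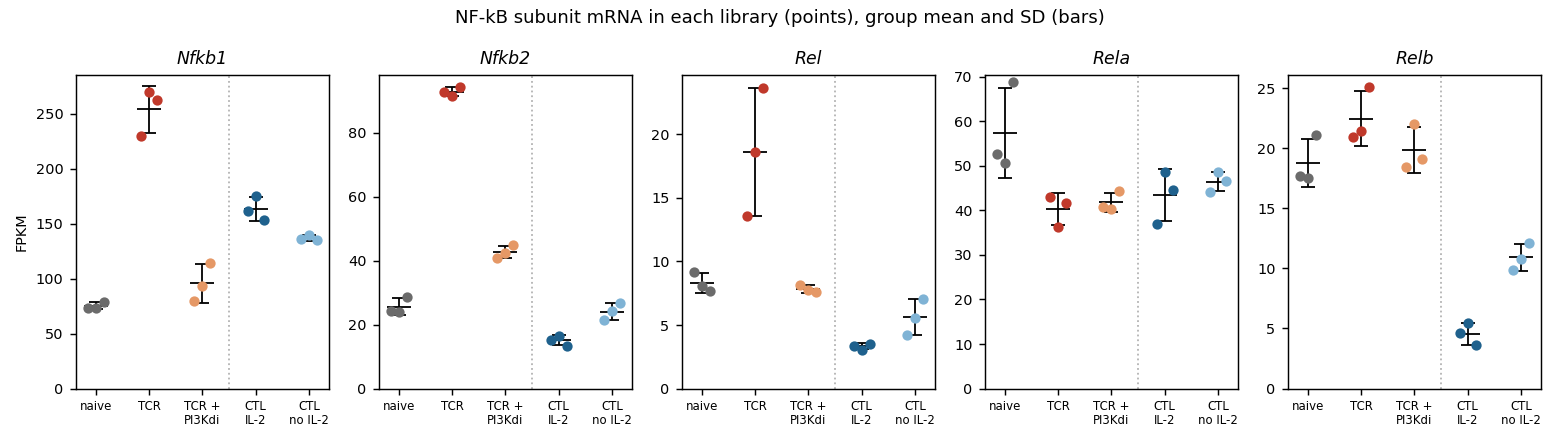
FPKM (vertical axis, linear, from 0, scaled per gene) of the 5 NF-kB subunit mRNA in naïve, TCR, TCR + PI3Kdi, CTL in IL-2 and IL-2 deprived CTL libraries; points are libraries, black bars the mean and SD of 3, and the dotted line separates the 2 tables. Nfkb1, Nfkb2 and Rel were highest in TCR cells among the 3 groups left of the line, while Rela was highest in naïve cells and Relb was low in CTL.

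The first comparison asks what 24 h of antigen does to these mRNA. Nfkb1, Nfkb2 and Rel rose in TCR cells and Nfkbiz fell, whereas Rela, Relb and the other inhibitors stayed under the 2-fold limit. An mRNA was called higher or lower, and is said to have risen or fallen, at an adjusted p under 0.05 in limma together with a fold change above 2 or below 0.5. By that rule 3 of 10 members were higher, against 25.0% of all mRNA tested, and 1 of 10 was lower, against 23.7%. Without the fold limit 4 were higher, against 40.9%, and 4 lower, against 39.8%. These shares lie near or below the background, so the counts set the members apart in neither direction. Naïve cells were uncultured, so antigen, cytokines, vehicle and culture cannot be told apart here, and in bulk RNA more cells of a type and more RNA per cell cannot be told apart either.

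Nfkb1 (Entrez 18033, mm10 chr3:135584655-135691547, minus strand) had 72.92, 73.56 and 78.87 FPKM in the naïve libraries. It had 229.73, 269.53 and 262.70 FPKM in the TCR libraries, so that each activated library was far above each naïve one. The log2 fold change was 1.75 (SE 0.12, adjusted p = 1.1e-07). Nfkb2 (Entrez 18034, chr19:46304320-46312385, plus strand) read 24.20, 23.83 and 28.77 FPKM in naïve and 92.77, 91.36 and 94.18 FPKM in TCR cells. This was the steepest rise among the members, by 1.86 on the log2 scale (SE 0.09, adjusted p = 4.6e-09), with little spread among the TCR libraries. Of the exon bases of Nfkb2, 11.6% overlap the non-coding RNA AC114539.1 and 6.5% overlap Psd, both on the opposite strand, and use of strand in the counting was not given in the sources used here.

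Rel (Entrez 19696, chr11:23736847-23770970, minus strand), the subunit c-Rel, best known from lymphocytes, had 9.21, 8.07 and 7.65 FPKM in naïve cells. In TCR cells it had 13.57, 18.65 and 23.67 FPKM, a wider spread than for the other subunits relative to the mean, though still with no overlap. The log2 fold change was 1.12 (SE 0.17, adjusted p = 9e-05). It fell under the 2-fold limit, at 0.88, when the libraries of replicate 3 were left out. Rela (Entrez 19697, chr19:5637483-5648130, plus strand), which encodes the main activating partner of p50, went the other way. Its naïve values of 52.58, 50.66 and 68.87 FPKM lay above the TCR values of 42.98, 36.19 and 41.60 FPKM, and the log2 fold change of -0.50 (SE 0.12, adjusted p = 0.0023) did not reach 2-fold. Relb (Entrez 19698, chr7:19606217-19629438, minus strand), the partner of p52, had 17.72, 17.49 and 21.08 FPKM in naïve and 20.95, 21.41 and 25.07 FPKM in TCR cells, and these ranges overlapped (log2 fold change 0.26, 95% interval 0.01 to 0.51, adjusted p = 0.053). Within the libraries of one number, which were taken to share a pool of mice, TCR cells were higher by 1.18, 1.22 and 1.19 times, and with the replicate number as a block the adjusted p was 0.048 in limma for the same change, far under the 2-fold limit.

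Since subunits are used in pairs, the ratio of FPKM within a library was also taken, which does not depend on how libraries were scaled. Nfkb1 over Rela was 1.33 ± 0.162 (SD, n = 3) in naïve and 6.37 ± 1.05 (SD, n = 3) in TCR cells. Nfkb2 over Relb was 1.36 ± 0.00165 (SD, n = 3) and 4.15 ± 0.351 (SD, n = 3), and Rel over Rela was 0.149 ± 0.0334 (SD, n = 3) and 0.467 ± 0.134 (SD, n = 3). The ranges did not overlap for any of these ratios, and each exact two-sided permutation p was 0.1, which is the smallest that 3 against 3 libraries can give (0.109 after Benjamini-Hochberg adjustment over 12 ratio tests).

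Among the inhibitors, Nfkbiz (Entrez 80859, chr16:55811375-55838899, minus strand), which encodes the nuclear protein IkBζ, had 13.29, 10.33 and 12.08 FPKM in naïve and 4.94, 3.16 and 5.46 FPKM in TCR cells. It fell by 1.41 on the log2 scale (SE 0.20, adjusted p = 5.8e-05). Tnfaip3 (Entrez 21929, chr10:19000910-19015657, minus strand), which encodes the ubiquitin editing enzyme A20, had 20.12, 24.52 and 18.82 FPKM against 10.75, 9.46 and 13.04 FPKM. Every TCR library was below every naïve one, with a log2 fold change of -0.93 (SE 0.16, adjusted p = 0.00021), just under the 2-fold limit; without replicate 3 it was -1.13 and past it. Nfkbie (Entrez 18037, chr17:45555703-45563169, plus strand), which encodes the cytoplasmic inhibitor IkBε, had 18.46, 17.16 and 20.37 FPKM against 10.84, 11.13 and 14.36 FPKM (log2 fold change -0.63, SE 0.15, adjusted p = 0.0026).

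Nfkbid (Entrez 243910, chr7:30421732-30428746, plus strand), which encodes the nuclear protein IkBNS, was the one inhibitor with higher values in each TCR library. It had 34.07, 25.42 and 38.10 FPKM in naïve and 59.29, 54.57 and 76.66 FPKM in TCR cells. The log2 fold change of 0.97 (SE 0.17, adjusted p = 0.00025) lay just under the 2-fold limit and passed it without replicate 1, at 1.05, or with median scaling of the libraries, also at 1.05. Nfkbia (Entrez 18035, chr12:55489410-55492647, minus strand), which encodes IkBα, the classical cytoplasmic inhibitor, had 71.92, 71.87 and 67.27 FPKM in naïve and 54.06, 56.57 and 87.87 FPKM in TCR cells. The TCR libraries lay on both sides of the naïve ones, with a log2 fold change of -0.12 (95% interval -0.58 to 0.33, adjusted p = 0.59).

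**Figure D2:**
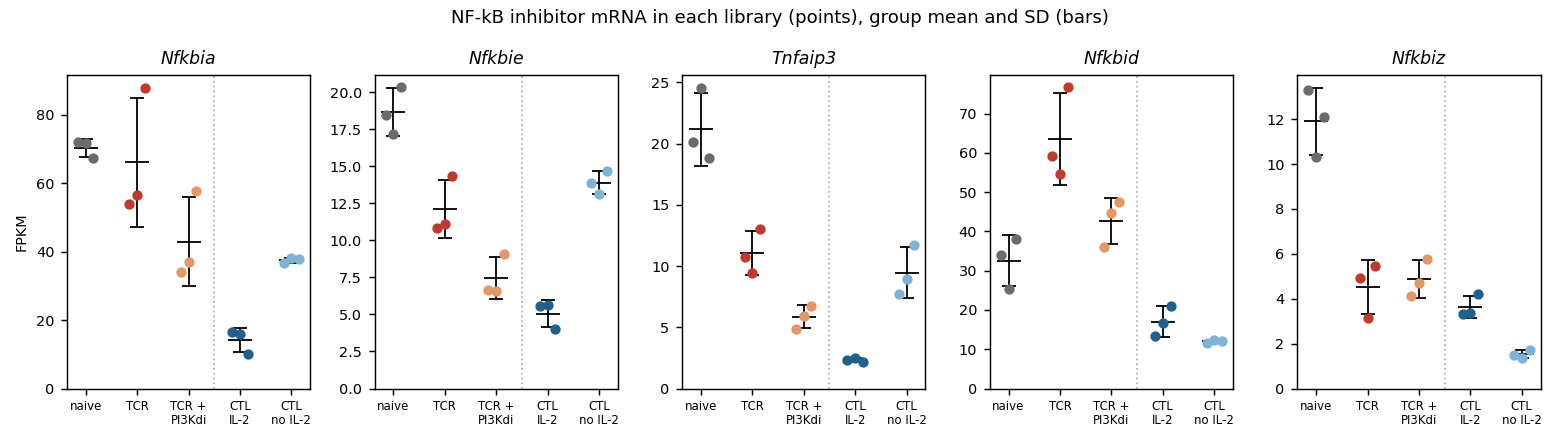
FPKM (vertical axis, linear, from 0, scaled per gene) of the 5 inhibitor mRNA in the same 5 groups; points are libraries, black bars the mean and SD of 3, and the dotted line separates the 2 tables. Tnfaip3, Nfkbie and Nfkbiz were highest in naïve cells, and right of the line Tnfaip3, Nfkbie and Nfkbia were higher in IL-2 deprived CTL while Nfkbiz was lower.

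The second comparison asks which of these mRNA differ when p110δ is inhibited during activation. Nfkb1, Nfkb2 and Rel, the subunits that had risen with antigen, fell with PI3Kdi, and no member rose. Thus 3 of 10 members were lower, against 2.10% of all mRNA, and 0 of 10 were higher, against 3.04%. Without the fold limit 6 of 10 were lower in limma, against 8.19% of all mRNA, and none was higher, against 9.35%. Among those lower, Nfkbie and Nfkbid were not under 0.05 in some refits with a replicate left out, as given below. At an unadjusted p under 0.05 the counts were 7 lower, against 15.4% of all mRNA, and 0 higher, against 16.1%. The TCR libraries also serve in the comparison with naïve cells, so a high TCR value raises the one change and lowers the other.

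Nfkb1 had 79.67, 93.14 and 114.55 FPKM in the PI3Kdi libraries, each far below the lowest TCR library. The log2 fold change against TCR cells was -1.42 (SE 0.12, adjusted p = 3.1e-05). For Nfkb2 the PI3Kdi values were 40.86, 42.48 and 44.75 FPKM, tight in both groups, with a log2 fold change of -1.12 (SE 0.09, adjusted p = 1.6e-05). Rel had 8.16, 7.76 and 7.59 FPKM with PI3Kdi, with a log2 fold change of -1.20 (SE 0.17, adjusted p = 0.00088). These values lie within or close to the naïve range of 7.65 to 9.21 FPKM. Leaving out replicate 3, whose TCR library had the most Rel, gave -0.99, under the 2-fold limit.

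Rela and Relb overlapped between the 2 groups. Rela had 40.83, 40.34 and 44.29 FPKM in PI3Kdi cells, with a log2 fold change of 0.06 (95% interval -0.20 to 0.32, adjusted p = 0.79). Relb had 18.44, 22.01 and 19.07 FPKM, a log2 fold change of -0.18 (95% interval -0.43 to 0.07, adjusted p = 0.32). Both intervals leave out a 2-fold change. The ratio of Nfkb1 to Rela was 2.28 ± 0.318 (SD, n = 3) with PI3Kdi, that of Nfkb2 to Relb 2.16 ± 0.213 (SD, n = 3) and that of Rel to Rela 0.188 ± 0.0148 (SD, n = 3), each without overlap with TCR cells (exact two-sided permutation p = 0.1 for each, the smallest possible).

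No inhibitor passed the 2-fold limit with PI3Kdi. Tnfaip3 came closest, with 4.87, 5.92 and 6.74 FPKM, all below the lowest TCR library of 9.46 FPKM (log2 fold change -0.91, SE 0.16, adjusted p = 0.0029). It passed the limit without replicate 2, at -1.03. Nfkbie had 6.67, 6.61 and 9.10 FPKM (log2 fold change -0.70, SE 0.15, adjusted p = 0.01) and Nfkbid had 36.07, 44.67 and 47.37 FPKM (log2 fold change -0.57, SE 0.17, adjusted p = 0.041), in each case with no overlap with TCR cells. In limma without replicate 1, 2 or 3 the adjusted p was 0.065, 0.13 and 0.0093 for Nfkbie. For Nfkbid it was 0.19, 0.078 and 0.093, and 0.074 with no intensity trend. With the replicate number as a block it was 0.0021 for Nfkbie and 0.016 for Nfkbid. Groups without overlap were seen for 6 of 10 members in the lower direction, against 18.6% of all mRNA, and for 0 of 10 in the higher, against 18.1%. Nfkbia had 34.08, 36.92 and 57.74 FPKM, where replicate 3 was high in both activated groups, and the ratio to the TCR library of the same number was 0.630, 0.653 and 0.657. Its log2 fold change was -0.63 (SE 0.21, adjusted p = 0.061), and with the replicate number as a block the adjusted p was 0.027 for the same change, still under the 2-fold limit. Nfkbiz had 4.11, 4.69 and 5.78 FPKM, within the spread of TCR cells (log2 fold change 0.13, 95% interval -0.33 to 0.58, adjusted p = 0.72).

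B cells also use Rel and Nfkb1, and some of their markers moved with the inhibitor. Ms4a1 had 0.48 to 0.95 FPKM in TCR and 0.04 to 0.11 FPKM in PI3Kdi cells, and Cd22 had 0.29 to 0.70 FPKM and 0.02 to 0.05 FPKM, and both were called lower. Cd79a had 0.46 to 1.34 FPKM and 0.16 to 0.53 FPKM and was not called (adjusted p = 0.16 in limma). Cd79b, the most abundant of these, had 3.02 ± 0.451 FPKM in TCR and 3.29 ± 0.490 FPKM in PI3Kdi cells, beside 20.3 ± 1.24 FPKM in naïve cells (SD, n = 3). Of 11 myeloid and dendritic markers 2 had a row, with a sum of 1.85 to 4.97 FPKM in TCR and 3.56 to 4.57 FPKM in PI3Kdi cells, and Itgam was at 0 to 0.03 FPKM in TCR cells. Of 4 CD4 T cell markers 3 had a row, with a sum of 19.82 to 31.89 FPKM in TCR and 5.59 to 7.09 FPKM in PI3Kdi cells. Most of this sum was Cd40lg, which fell from 24.9 ± 6.01 to 4.75 ± 0.748 FPKM, while Foxp3 (0.177 ± 0.0982 and 0.463 ± 0.404 FPKM) and Zbtb7b (0.540 ± 0.139 and 0.950 ± 0.347 FPKM; SD, n = 3) had higher means with PI3Kdi and were not called. Of 4 NK cell markers 2 had a row, with a sum of 16.08 to 27.22 FPKM and 6.88 to 11.57 FPKM. Eomes was called lower and Klrd1 was not (3.61 ± 0.212 and 2.99 ± 0.299 FPKM, SD, n = 3). The paper counts both Cd40lg and Eomes among mRNA of activated CD8 T cells that depend on p110δ. Neither therefore marks other cell types alone in these cells. The 7 summed naïve markers were 349.36 to 394.22 FPKM in TCR and 555.42 to 750.82 FPKM in PI3Kdi cells, and the 7 summed activation and effector markers were 5499.18 to 6919.84 FPKM in TCR and 1013.29 to 1268.82 FPKM in PI3Kdi cells. The part of these differences in the members' values was not tested.

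Set against naïve cells, PI3Kdi cells had lower Tnfaip3, Nfkbie and Nfkbiz, and no subunit passed the 2-fold limit in either direction. Thus 3 of 10 members were lower, against 21.3% of all mRNA, and 0 of 10 were higher, against 23.6%. Without the fold limit 3 members were higher in limma (Nfkb2, Nfkb1 and Nfkbid), against 40.1% of all mRNA, and 5 were lower, against 39.0%. At an unadjusted p under 0.05 the counts were the same, against 40.6% and 39.7%. With 10 members, these counts do not set the members apart from all mRNA in either direction. Nfkbid was the inhibitor with the higher mean in PI3Kdi cells, at a log2 fold change of 0.40 (SE 0.17, adjusted p = 0.047) and with overlap. Without replicate 2 this was 0.20 (adjusted p = 0.34 in limma). The adjusted p was 0.043 without replicate 1, 0.035 without replicate 3 and 0.075 with no intensity trend. Tnfaip3 fell by 1.84 on the log2 scale (SE 0.16, adjusted p = 8.3e-07), which means that PI3Kdi cells held 0.279 of the naïve level. Nfkbie fell by 1.32 (SE 0.15, adjusted p = 9.4e-06) and Nfkbiz by 1.28 (SE 0.20, adjusted p = 0.00013). Nfkbia, at -0.75 (SE 0.21, adjusted p = 0.0061), was under the limit and passed it without replicate 3, at -1.02. Its adjusted p in limma was 0.06 without replicate 1 and 0.074 without replicate 2.

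For the subunits, Nfkb2 remained above each naïve library at a log2 difference of 0.74 (SE 0.09, adjusted p = 1.2e-05), and Nfkb1 at 0.34 (SE 0.12, adjusted p = 0.025), both under the 2-fold limit. For Nfkb1 the lowest PI3Kdi library had 79.67 FPKM and the highest naïve one 78.87 FPKM. Its adjusted p in limma was 0.0092 without replicate 1, 0.13 without replicate 2 and 0.12 without replicate 3. Rel and Relb overlapped with naïve cells, at -0.08 (95% interval -0.46 to 0.30) and 0.08 (95% interval -0.17 to 0.33). The sign of Rel changed with median scaling, and that of Relb changed without replicate 2. Rela had a log2 fold change of -0.44 (SE 0.12, adjusted p = 0.0051), beside -0.50 in TCR cells, which share the naïve libraries with this comparison. The ratio of Nfkb1 to Rela was 1.72 times and that of Nfkb2 to Relb 1.58 times the naïve ratio (exact two-sided permutation p = 0.1 for each), and that of Rel to Rela was 1.29 times the naïve ratio (exact p = 0.2).

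**Figure D3:**
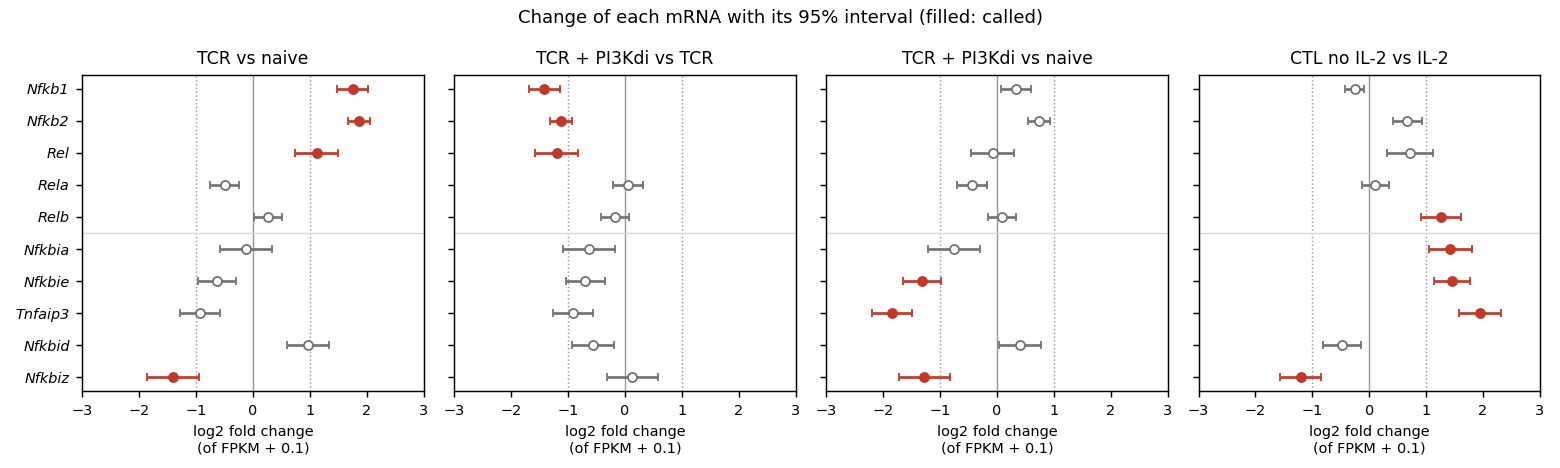
Log2 fold change of FPKM + 0.1 (horizontal axis) with its 95% interval from limma for each of the 10 mRNA (rows, subunits above the grey line) in 4 comparisons; filled red points were called, and dotted lines mark 2-fold. Subunits Nfkb1, Nfkb2 and Rel changed in opposite directions in the first 2 panels, which share the TCR libraries, and Nfkbia, Nfkbie, Tnfaip3 and Relb were higher in IL-2 deprived CTL.

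The last comparison asks what follows when CTL lose IL-2, the cytokine that sustains them. Here the inhibitors Tnfaip3, Nfkbie and Nfkbia and the subunit Relb rose, and the inhibitor Nfkbiz fell. By the same rule 4 of 10 members were higher, against 14.3% of all mRNA, and 1 of 10 was lower, against 13.9%. Without the fold limit the counts were 6 higher, against 35.2%, and 3 lower, against 36.6%.

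Tnfaip3 had 2.29, 2.53 and 2.18 FPKM in IL-2, the lowest of all members in these cells. It had 7.71, 8.92 and 11.75 FPKM in IL-2 deprived CTL, and the log2 fold change of 1.95 (SE 0.16, adjusted p = 5.5e-06) was the largest among the members in any comparison. Nfkbie had 5.58, 5.61 and 4.0 FPKM in IL-2 and 13.85, 13.14 and 14.69 FPKM without it (log2 fold change 1.45, SE 0.14, adjusted p = 1.5e-05). Nfkbia had 16.62, 15.96 and 10.08 FPKM in IL-2 and 36.59, 38.01 and 37.88 FPKM without it (log2 fold change 1.43, SE 0.17, adjusted p = 4.9e-05). For each of these inhibitors the deprived libraries all lay above the IL-2 libraries.

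Nfkbiz went the opposite way, from 3.34, 3.36 and 4.19 FPKM in IL-2 to 1.49, 1.36 and 1.71 FPKM without it. It fell by 1.20 on the log2 scale (SE 0.16, adjusted p = 0.00011). At these low levels the pseudocount matters, and with a pseudocount of 1 the change was -0.87 and no longer past 2-fold. Nfkbid had 13.25, 16.66 and 21.07 FPKM in IL-2 and 11.49, 12.36 and 12.07 FPKM without it (log2 fold change -0.48, SE 0.15, adjusted p = 0.017). Its adjusted p in limma was 0.082 without replicate 2 and 0.073 without replicate 3. The classical inhibitors and the nuclear IkB proteins Nfkbid and Nfkbiz thus had fold changes of opposite sign, and only Nfkbiz among the latter pair was called.

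Of the subunits, Relb had 4.61, 5.45 and 3.62 FPKM in IL-2 and 9.90, 10.80 and 12.14 FPKM in IL-2 deprived CTL. It rose by 1.26 on the log2 scale (SE 0.16, adjusted p = 7e-05). Nfkb2, whose product partners RelB, had 15.18, 16.53 and 13.41 FPKM against 21.32, 24.10 and 26.71 FPKM (log2 fold change 0.67, SE 0.11, adjusted p = 5e-04). Rel had 3.38, 3.06 and 3.53 FPKM against 4.23, 5.59 and 7.02 FPKM (log2 fold change 0.71, SE 0.18, adjusted p = 0.0056). Neither overlapped between the groups, and both were under the 2-fold limit. For Rel the adjusted p in limma was 0.061 without replicate 2.

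Nfkb1 was the exception among the subunits, lower in each deprived library, with 161.80, 174.85 and 153.64 FPKM in IL-2 and 135.50, 139.97 and 135.44 FPKM without it (log2 fold change -0.25, SE 0.08, adjusted p = 0.013). Its adjusted p in limma was 0.036 without replicate 1, 0.13 without replicate 2 and 0.029 without replicate 3. Rela had 36.99, 48.54 and 44.62 FPKM against 44.22, 48.56 and 46.61 FPKM, with overlap (log2 fold change 0.11, 95% interval -0.13 to 0.34, adjusted p = 0.38). The ratio of Nfkb1 to Rela was 3.81 ± 0.498 (SD, n = 3) in IL-2 and 2.95 ± 0.0989 (SD, n = 3) without it, and that of Nfkb2 to Relb 3.34 ± 0.339 (SD, n = 3) and 2.20 ± 0.0392 (SD, n = 3). The ratio of Rel to Rela went the other way, from 0.0778 ± 0.0142 (SD, n = 3) to 0.120 ± 0.0279 (SD, n = 3). The ranges did not overlap for any of these ratios, and the exact two-sided permutation p was 0.1 for each, the smallest possible.

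Markers of the state of the cells and of other cell types moved in this comparison too. The 7 summed naïve markers were 143.73 to 186.05 FPKM in IL-2 and 1420.15 to 1586.57 FPKM without it, and all 7 were called higher. The 7 summed activation and effector markers were 9740.75 to 12695.18 FPKM in IL-2 and 532.95 to 818.77 FPKM without it, with 4 called lower, and the 8 summed CD8 T cell markers were 1475.06 to 1541.31 FPKM and 2380.52 to 2628.18 FPKM, with 3 called higher. Itgam and Itgax, integrins of myeloid cells that activated T cells can also carry, had 0.20 to 0.39 FPKM and 0.21 to 0.39 FPKM in IL-2 and 3.89 to 4.46 FPKM and 3.67 to 5.17 FPKM without it. With Cd68 they were 3 of 11 myeloid and dendritic markers with a row, and the sum went from 5.57 to 9.67 FPKM in IL-2 to 13.66 to 21.70 FPKM without it. Of 7 B cell markers Cd79b alone had a row, at 2.74 to 6.30 FPKM in IL-2 and 10.80 to 20.64 FPKM without it. Of 4 CD4 T cell markers 3 had a row (sum 21.48 to 29.62 FPKM in IL-2 and 35.09 to 42.76 FPKM without it), Cd4 itself being at 0.05 to 0.39 FPKM and 0.92 to 1.92 FPKM. Of 4 NK cell markers 3 had a row, with a sum of 112.05 to 189.95 FPKM in IL-2 and 221.77 to 333.31 FPKM without it. Within that sum Klrd1 rose from 26.5 ± 7.26 to 245.7 ± 55.3 FPKM and Eomes, which effector CD8 T cells also express, fell from 114.2 ± 44.5 to 14.0 ± 5.89 FPKM (SD, n = 3). The part of these differences in the members' values was not tested.

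Set side by side over the 5 groups, each inhibitor was lower in CTL in IL-2 than in the 3 groups of the first table by mean. Tnfaip3 had 21.2 ± 2.99 FPKM in naïve, 11.1 ± 1.81 in TCR, 5.84 ± 0.937 in PI3Kdi, 2.33 ± 0.179 in CTL in IL-2 and 9.46 ± 2.07 in IL-2 deprived cells (mean ± SD, n = 3 each). Nfkbie followed the same order of the first 4 groups, with 18.7 ± 1.62, 12.1 ± 1.95, 7.46 ± 1.42, 5.06 ± 0.921 and 13.9 ± 0.776 FPKM (mean ± SD, n = 3 each). The summed FPKM of the 5 inhibitors was 149.3 to 157.9 in naïve, 134.9 to 197.4 in TCR, 85.8 to 126.7 in PI3Kdi, 41.1 to 44.1 in CTL in IL-2 and 71.1 to 78.1 in IL-2 deprived libraries. For the 5 subunits it was 173.6 to 205.2, 400.0 to 447.2, 188.0 to 230.2, 218.8 to 248.4 and 215.2 to 229.0. The inhibitor sum joins cytoplasmic and nuclear IkB proteins with A20, so it does not measure the strength of inhibition.

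For each member, the mRNA with the most similar pattern was found by Pearson r of log2(FPKM + 0.1) over the 15 libraries, centred within each table, among 9625 mRNA. The points share groups and pools, so r mainly follows the differences between the groups and is given as a description. The nearest were Grap for both Nfkbie (r = 0.982) and Tnfaip3 (r = 0.98), Ell2 for Nfkb1 (r = 0.978), Xcl1 for Nfkb2 (r = 0.972), Trp53bp2 for Nfkbiz (r = 0.97), Zbtb7a for Rela (r = 0.966), Sepp1 for Relb (r = 0.95), Rpusd4 for Nfkbia (r = 0.94), Dclre1b for Nfkbid (r = 0.934) and Crtam for Rel (r = 0.932). A member was next in line in 2 cases, Nfkbie for Nfkbia (r = 0.934) and for Tnfaip3 (r = 0.969).

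Upstream of the subunits, 29 adaptors and kinases had rows in both tables. With antigen 0 rose and 9 fell in limma, beside 25.0% and 23.7% of all mRNA. There were 3 and 22 at an unadjusted p under 0.05 with no fold limit, beside 41.5% and 40.4%. The median log2 fold change was -0.71 beside 0.01 over all mRNA. With PI3Kdi 2 rose and 1 fell against TCR cells, beside 3.04% and 2.10% of all mRNA (median 0.14). Malt1, the paracaspase, rose (131.8 ± 23.98 FPKM against 46.5 ± 7.31, log2 fold change 1.5, SE 0.14, adjusted p = 6.1e-05; SD, n = 3). Traf1, an adaptor that is also a known NF-kB target, fell (23.9 ± 1.99 FPKM against 58.9 ± 2.60, log2 fold change -1.30, SE 0.09, adjusted p = 9.3e-06; SD, n = 3). Against naïve cells the PI3Kdi cells had 2 higher and 8 lower, beside 23.6% and 21.3% of all mRNA.

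With loss of IL-2, 5 adaptors and kinases rose and 0 fell in limma, beside 14.3% and 13.9% of all mRNA. There were 17 and 3 at an unadjusted p under 0.05 with no fold limit, beside 36.3% and 37.7%. The median log2 fold change was 0.43. The 4 with the largest change were Ikbke, an IkB kinase relative (49.6 ± 3.11 FPKM against 18.3 ± 3.13, log2 fold change 1.45), Birc2, the ubiquitin ligase cIAP1 (1.21), Traf5 (1.09) and Map3k14, the kinase NIK that drives processing of p100 (14.0 ± 1.14 FPKM against 6.67 ± 0.124, log2 fold change 1.05, SE 0.10, adjusted p = 1.2e-05; SD, n = 3).

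Of 19 receptors that feed the pathway 15 had a row in each table. With antigen 8 rose and 4 fell, beside 25.0% and 23.7% of all mRNA. Against TCR cells PI3Kdi cells had 1 higher and 4 lower, beside 3.04% and 2.10% (median -0.09). Those lower were Tnfrsf9, the costimulator 4-1BB (23.1 ± 10.2 FPKM against 159 ± 63.9, log2 fold change -2.80, SE 0.35, adjusted p = 0.00039; SD, n = 3), and the IL-1 family receptors Il1rl1 (-2.72), Il18r1 (-1.63) and Il18rap (-1.42). Cd28 was the one called higher, at 1.02 (SE 0.13, adjusted p = 0.00037). Loss of IL-2 gave 5 higher and 3 lower, beside 14.3% and 13.9% of all mRNA (median 0.74). Among them were Tnfrsf9 at -5.24 (5.52 ± 0.819 FPKM against 213 ± 45.3), Cd27 at 3.78, Il1rl1 at -2.86 and Tnfrsf25 at 2.67.

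Of 22 other inhibitors and feedback genes 21 had a row in each table. With antigen 5 rose and 5 fell, near the shares of 25.0% and 23.7% of all mRNA. With PI3Kdi 0 rose and 0 fell against TCR cells in limma, beside 3.04% and 2.10% of all mRNA (median -0.07). There were 4 and 7 at an unadjusted p under 0.05 with no fold limit, beside 16.1% and 15.4%. With loss of IL-2, Tnip3, a partner of A20, rose (1.81, from 0.18 ± 0.0173 to 0.883 ± 0.120 FPKM), as did Nfkbil1 (1.03), and Bcl3, an atypical IkB protein, fell (-1.28).

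The list of textbook NF-kB targets in lymphocytes had 31 of 32 genes with a row in the first table and 30 in the second, and other pathways also drive these genes. Like the other lists, it was chosen with earlier results of these data known. Its counts and medians therefore describe these data and are no test of the pathway. With antigen 20 rose and 3 fell, beside 25.0% and 23.7% of all mRNA (median 2.32). Against TCR cells PI3Kdi cells had 0 higher and 15 lower in limma, beside 3.04% and 2.10% of all mRNA. There were 3 and 19 at an unadjusted p under 0.05 with no fold limit, beside 16.1% and 15.4%. The median was -0.63 beside -0.01 over all mRNA. The 4 largest were Bcl2a1d (-3.40), a survival gene whose reads can be shared with its near-identical copy Bcl2a1b, the cytokine Lta (31.7 ± 12.5 FPKM against 277 ± 37.3, log2 fold change -3.19, SE 0.25, adjusted p = 1.5e-05; SD, n = 3), the chemokine Ccl3 (-2.83) and Tnfrsf9, which is on both lists. With loss of IL-2, 6 rose and 11 fell, beside 14.3% and 13.9% of all mRNA (median -0.75). The 4 largest changes were those of Tnfrsf9, Ccl5 at 4.36, Lta at -4.32 and Tnf at -3.34. Any tie between these changes and those of the members was not tested.

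**Figure D4:**
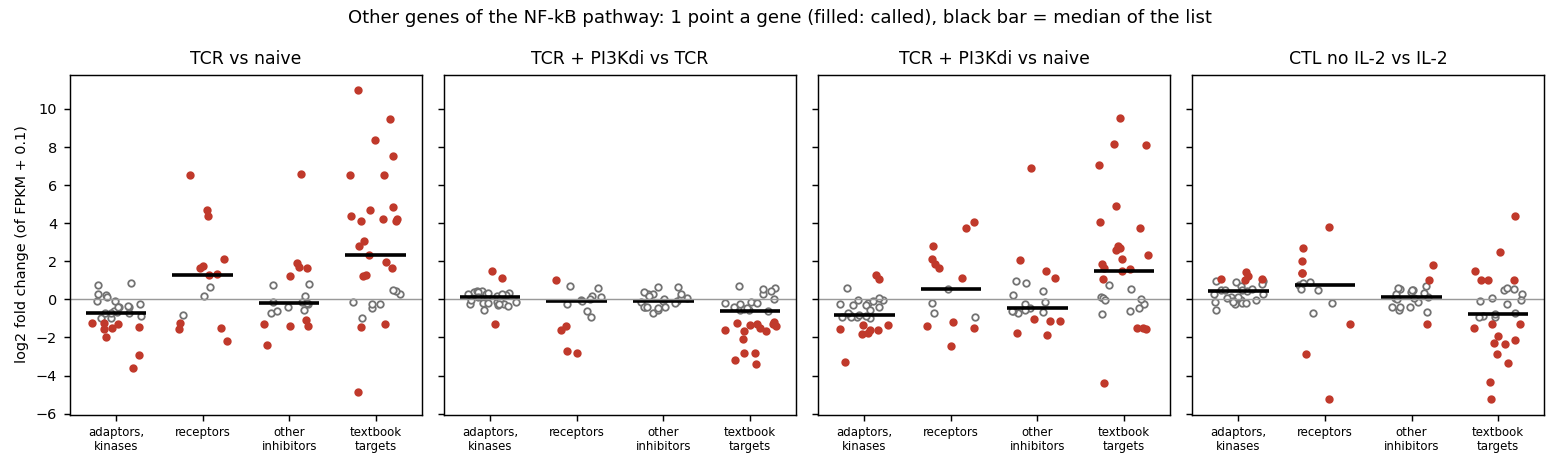
Log2 fold change of FPKM + 0.1 (vertical axis) of the other genes of the pathway in 4 comparisons; each point is a gene, filled red where called, black bars are list medians and horizontal scatter has no meaning. Textbook targets had a median of 2.32 with antigen, -0.63 with PI3Kdi against TCR cells and -0.75 with loss of IL-2, while adaptors and kinases had a median of 0.14 in the second panel.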

How the data were processed

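Libraries (TruSeq Stranded mRNA) were prepared and sequenced (paired-end 75 bp reads, HiSeq 3000) by a sequencing core facility. The authors deposited FPKM rounded to 2 decimals: per the methods and labels, reads were aligned with STAR 2.5.2b to mm10 and counted per gene with Subread 1.5.1, low genes were removed with filterByExpr, and TMM-normalised counts from edgeR were scaled by gene length, taken as the union of a gene's exons. For the CTL set, which the methods do not describe, the same steps were assumed. The filter leaves out genes low in all groups, and FPKM carry no counts, so no count model was fitted. Blank cells were read as 0. Samples were grouped by label titles; treatment labels of CTL in IL-2 name other interleukins for replicates 2 and 3.

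The values log2(FPKM + 0.1) were fitted with limma 3.58.1 in R 4.3.3 with an intensity trend, one fit per table over all its groups, and p-values were adjusted by Benjamini-Hochberg over all mRNA of the table. Called changes had an adjusted p under 0.05 and a fold change above 2 or below 0.5, where fold changes are on the log2(FPKM + 0.1) scale, which understates changes of low mRNA. Tests never crossed the tables. Python 3.11.15, pandas 2.3.3, numpy 2.4.6 and matplotlib 3.10.9 were used, with gene positions from GENCODE M21. On simulated tables of 11262 or 11211 mRNA with 200 changed 4-fold, 96% to 97.5% were recovered, with 1 to 3 false calls. No other mRNA differed in the simulated tables, and each member changed by less than 4-fold in the data. These rates therefore do not carry over to the members' calls, least of all near the 2-fold limit. Replicates of a group had r of 0.983 to 0.995.

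The members and gene lists were chosen with earlier results of these data known. All 10 members are described. Of the pathway lists, counts are given for each comparison, and by name up to 4 called genes with the largest change per list for PI3Kdi against TCR and for loss of IL-2; the most similar mRNA of each member is named too. One B cell marker and one called gene of the pathway lists are not reported here, and no sum over the B cell list is given. Alternatives were a pseudocount of 1 or 0.01, only mRNA with mean FPKM of at least 1, median scaling, the replicate block, no intensity trend, other fold limits, leaving out each replicate number and fitting only the groups compared.

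Each pool of 3 mice was divided among naïve, TCR and PI3Kdi cells, and libraries with the same number were taken to share a pool. Their deviations from the group means had r of 0.275, 0.203 and 0.506 between TCR and PI3Kdi cells, -0.141, 0.226 and -0.181 between naïve and TCR cells, -0.015, -0.017 and 0.03 between naïve and PI3Kdi cells, and 0.123, 0.166 and 0.257 between the CTL groups. Between different numbers r reached 0.191 for TCR and PI3Kdi cells, 0.378 for naïve and TCR cells (TCR 1 with naïve 3) and 0.091 for CTL. For naïve and TCR cells the values thus do not show the shared pools, on which the block for Relb rests. Pools of the CTL are not described in the sources used here.

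Read totals are not given in the sources used here. For genes with a single annotated transcript, low FPKM lay nearest to whole multiples of one fragment at 9.5 to 15.7 M fragments per library (50.0% to 78.6% of 23 to 56 genes within 0.1 of a whole number), a rough estimate from which no detection limit was taken.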

Additional observations from a re-analysis of the deposited data

How the results depend on the processing

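Leaving out the fold limit moved the counts most. Members lower in TCR against naïve cells went from 1 to 4 (3 at a limit of 1.5), members lower with PI3Kdi against TCR cells from 3 to 6 (5 at 1.5), members higher and lower with PI3Kdi against naïve cells from 0 and 3 to 3 and 5 (1 higher at 1.5), and members lower with loss of IL-2 from 1 to 3. Over all mRNA, the counts higher and lower without the limit were 4609 and 4487 for TCR against naïve, 1053 and 922 for PI3Kdi against TCR (687 and 433 at 1.5), 4512 and 4394 for PI3Kdi against naïve, and 3948 and 4108 for loss of IL-2 (2824 and 2833 at 1.5), beside 2818 and 2672, 342 and 237, 2659 and 2404, and 1605 and 1561. A pseudocount of 1 gave 170 and 141 for PI3Kdi against TCR, 1053 higher for loss of IL-2, and 0 members lower there, as Nfkbiz was at -0.87. Leaving out one replicate number gave 2 to 4 members higher and 1 to 2 lower for TCR against naïve, 2 to 4 lower for PI3Kdi against TCR and 3 to 4 lower for PI3Kdi against naïve; over all mRNA the counts for PI3Kdi against TCR were 197 to 345 higher and 126 to 245 lower, both lowest without replicate 2. Signs changed for Nfkbia in TCR against naïve (-0.378 to 0.0201, positive without replicate 1), Nfkbiz in PI3Kdi against TCR (-0.0894 to 0.318, negative without replicate 2), Relb in PI3Kdi against naïve (-0.0434 to 0.194, negative without replicate 2) and Rel there with median scaling (0.0014), none of which was called. After median scaling the median log2 fold change of all mRNA was -0.005 to 0.085 over the 4 comparisons, beside -0.008 to 0.005 as deposited. With the replicate number as a block the members called higher and lower were 3 and 1, 0 and 3, 0 and 3, and 4 and 1 in the order of the comparisons above, as without it, and 347 and 244 mRNA were called for PI3Kdi against TCR. The block changed no call of a member. The cause of these changes was not tested, and 3 libraries per group limit the precision of each value.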
